A study of Mus musculus with 60 samples.

Results

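NMuMG cells labelled sgPBRM1, with the genotype given as PBRM1 knockout, were compared with NMuMG cells labelled sgCT (control) after 72 h of TGFβ1 at 5 ng/ml. Each genotype had 3 libraries, so the comparison used 6 of the 60 RNA sequencing libraries of the series, and all genes of the count table took part. The table lists 54532 genes, of which 14345 had enough counts to be tested. The NMuMG line comes from epithelium of the mouse mammary gland and passes from an epithelial to a mesenchymal state (EMT) under TGFβ1. The same genotypes at 0 h (no TGFβ1), 24 h and 48 h had 3 libraries per group and entered the same fit. Libraries of another line, the mouse mammary carcinoma 4T1, came from cells labelled shPBRM1 (PBRM1 knockdown) and pLKO (control vector) after 4 d of TGFβ1, again with 3 libraries each. The labels call all of them biological replicates. They do not say which guide RNAs were used or whether sgPBRM1 cells are 1 clone or a pool, and p-values measure the spread between these cultures. No NMuMG group is labelled as 72 h without TGFβ1, so TGFβ1 and time in culture cannot be told apart.

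PBRM1 (BAF180) is the polybromo subunit of PBAF, a form of the SWI/SNF complexes that use ATP to move nucleosomes. Its bromodomains bind acetylated histone tails, and PBAF is further set apart by ARID2, BRD7 and PHF10. TGFβ1 binds a receptor kinase pair that activates SMAD2 and SMAD3, which enter the nucleus with SMAD4. In mammary epithelium this signal is known to slow division, to loosen cell junctions and to raise matrix production. Levels below are CPM values (counts scaled to library size with TMM factors). Differences are log2 fold changes of sgPBRM1 over sgCT cells with their standard error (SE), so that 1 stands for 2-fold, and a gene passed at an adjusted p under 0.05 in edgeR's quasi-likelihood test.

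After 72 h of TGFβ1, sgPBRM1 cells had lower levels of mitotic and DNA replication genes, of Peg3, keratin 7 and complement C3, and higher levels of Fgf2, carbonic anhydrase 12 and most listed hypoxia genes and fibrillar and type VI collagens than sgCT cells. In all, 7161 of 14345 genes passed (49.9%), 3490 of them higher (24.3%) and 3671 lower (25.6%) in sgPBRM1 cells. With library totals in place of TMM factors 2889 were higher and 4275 lower. A difference of at least 2-fold was reached by 451 higher genes (3.14%) and 725 lower genes (5.05%). The 3 sgPBRM1 libraries lay entirely above the sgCT libraries for 3804 genes (26.5%) and entirely below them for 4018 (28%). These shares are the background for each gene list below. The median difference over all tested genes was -0.00274.

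**Figure D1:**
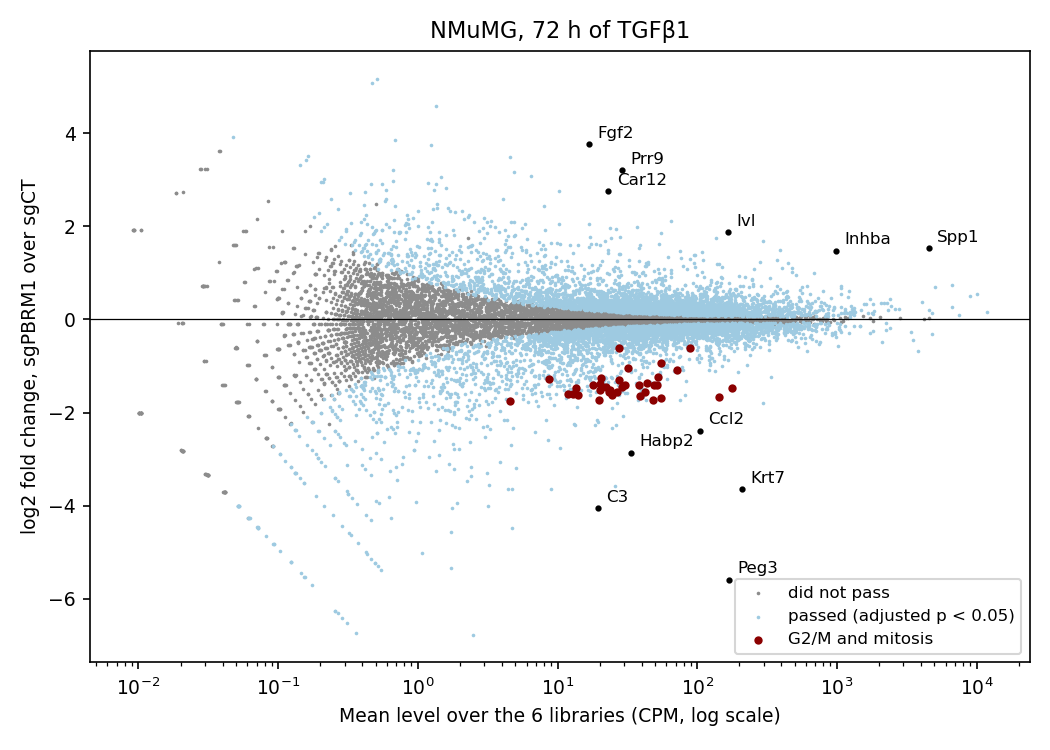
Difference between sgPBRM1 and sgCT cells at 72 h of TGFβ1 (y axis, log2 fold change) against mean level over the 6 libraries (x axis, CPM, log scale) for the 14345 genes tested. Grey points did not pass, light points passed, and G2/M genes are filled in dark red; all 35 G2/M genes lie below 0, and Peg3, at -5.59, is the labelled gene farthest from 0.

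The genes that differed at least 2-fold at 72 h were compared with the earlier times, whose libraries are separate. Of the 451 higher genes, 107 were also at least 2-fold higher at 0 h, which is 23.7% of the 72 h genes and 32.3% of the 331 genes higher at 0 h (2.31% of all genes). Of the 725 lower genes, 202 were at least 2-fold lower at 0 h, which is 27.9% of the 72 h genes and 49.9% of the 405 at 0 h (2.82% of all). At 48 h the shared genes were 242 of 451 higher (53.7%; 60.3% of 401, themselves 2.8% of all genes) and 440 of 725 lower (60.7%; 64.6% of 681, themselves 4.75%). The median difference of the higher genes was 0.62, 0.89, 1.13 and 1.42 at 0, 24, 48 and 72 h, and that of the lower genes -0.44, -0.85, -1.20 and -1.54. These genes were chosen by their 72 h values, which makes the last median the one the choice itself sets.

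Pbrm1 itself had 87.6, 96.1 and 83.2 CPM in sgPBRM1 libraries, against 100, 103 and 99.8 CPM in sgCT libraries. The groups did not overlap, and the difference was -0.18 (SE 0.0427, adjusted p = 0.000286). A count over the whole gene does not show a small edit in its coding sequence, so it does not check the knockout. Depth was 16978857 to 19369860 counts in sgPBRM1 libraries and 16410472 to 17091013 in sgCT libraries. The 10 most abundant genes took 7.53 to 7.75% of counts in sgPBRM1 libraries and 6.15 to 6.28% in sgCT libraries, and mitochondrially encoded genes 2.38 to 2.46% and 2.2 to 2.26%. Of 12 epithelial markers 9 were tested, 1 higher and 6 lower, and their summed level was 6450 to 6620 CPM in sgPBRM1 libraries and 9560 to 9800 CPM in sgCT libraries. Epcam, an epithelial adhesion marker, was at 0 to 0.0559 CPM in sgPBRM1 libraries and 0 to 0.241 CPM in sgCT libraries, near 0 in both. Fibroblast markers summed to 3.18 to 3.57 CPM in sgPBRM1 and 2.12 to 2.64 CPM in sgCT libraries, with Dcn and Lum at 0 counts in all 6. For 10 leukocyte markers the sums were 5.87 to 7.08 and 5.02 to 6.05 CPM, with Adgre1 at 0 counts, and for 8 endothelial markers 0.384 to 0.561 and 0.753 to 1.26 CPM. The part of these shifts in the results was not tested. In bulk RNA, fewer cells of a kind and less RNA per cell cannot be told apart.

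The genes of mitosis were lower throughout. All 35 listed G2/M genes were lower in sgPBRM1 cells at 72 h, beside 25.6% of all genes, and 32 of them at least 2-fold, beside 5.05%. Their median difference was -1.46, and their summed level was 756 to 801 CPM in sgPBRM1 libraries and 1950 to 2030 CPM in sgCT libraries. Cdk1, the kinase that drives entry into mitosis, had 37.2, 37.4 and 38.8 CPM in sgPBRM1 libraries, against 70.2, 70.7 and 76.1 CPM in sgCT libraries (log2 difference -0.94, SE 0.0473). Cdc20, the activator of the anaphase promoting complex, had 12.2, 10.8 and 12.8 CPM in sgPBRM1 libraries, against 37.2, 31.9 and 35.6 CPM in sgCT libraries (-1.55, SE 0.0752). No sgPBRM1 library reached the lowest sgCT library for either gene. Kif11, the motor that pushes spindle poles apart, had 26.3, 21.8 and 19.5 CPM in sgPBRM1 libraries, against 72.7, 74.6 and 75 CPM in sgCT libraries (-1.72, SE 0.0603). Top2a, which untangles DNA before anaphase, had 98.7, 91.8 and 93.2 CPM in sgPBRM1 libraries, against 262, 260 and 266 CPM in sgCT libraries (-1.47, SE 0.0344). The smallest differences of the list were those of Anln and Espl1, both at -0.61.

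Regulators of these genes belong to the same list and were lower as well. Foxm1, a forkhead factor that switches on mitotic genes, had 22.9, 19.1 and 21.8 CPM in sgPBRM1 libraries, against 57.8, 54.2 and 55.7 CPM in sgCT libraries (-1.40, SE 0.0628). Mybl2, which works with the MuvB complex on the same genes, differed by -1.60 (SE 0.0931). Aurka and Plk1, kinases of the spindle poles and kinetochores, differed by -1.62 (SE 0.0742) and -1.46 (SE 0.0736). Cdc25c, the phosphatase that activates CDK1, was low in level, with 1.51 to 2.52 CPM in sgPBRM1 and 6.53 to 7.91 CPM in sgCT libraries, and showed the largest difference of the list at -1.74 (SE 0.161).

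Sequences upstream of 4 of these genes are shown because G2/M promoters are known for a short element, the cell cycle homology region, through which MuvB complexes with MYBL2 and FOXM1 act. The element was searched as TTTGAA or TTCGAA on both strands, and each sequence below is the 150 bases before the RefSeq start (GRCm38.p6), with the element in capitals. They lie at chr4:118437344-118437493 (minus strand) for Cdc20, chr10:69352913-69353062 (minus strand) for Cdk1, chr19:37376232-37376381 (plus strand) for Kif11 and chr11:99024190-99024339 (minus strand) for Top2a.
Cdc20: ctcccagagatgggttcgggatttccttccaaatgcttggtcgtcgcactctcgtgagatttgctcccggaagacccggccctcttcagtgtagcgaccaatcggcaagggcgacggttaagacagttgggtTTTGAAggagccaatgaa
Cdk1: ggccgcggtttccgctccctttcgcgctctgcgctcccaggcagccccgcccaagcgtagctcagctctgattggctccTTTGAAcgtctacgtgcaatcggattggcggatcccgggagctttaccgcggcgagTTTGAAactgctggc
Kif11: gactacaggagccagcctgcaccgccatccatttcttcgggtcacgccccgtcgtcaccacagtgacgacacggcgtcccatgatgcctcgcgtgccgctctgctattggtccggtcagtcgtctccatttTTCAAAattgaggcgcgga
Top2a: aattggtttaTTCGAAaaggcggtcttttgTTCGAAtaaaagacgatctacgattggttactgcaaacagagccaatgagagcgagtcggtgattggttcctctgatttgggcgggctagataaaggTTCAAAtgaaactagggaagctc
Counted from the start, the element nearest to it began at -18 in Cdc20, -15 in Cdk1, -19 in Kif11 and -23 in Top2a. Within 300 bases around the start (250 before and 50 after), 22 of the 29 G2/M genes with a promoter in the RefSeq table held the element (75.9%), beside 1391 of 10107 tested genes with a promoter (13.8%). The share was 25.1% of 498 genes lower by at least 2-fold and 13.8% of 283 genes higher by at least 2-fold. The 498 include most of the 29 G2/M genes, so the 25.1% is not separate from their share. The CCAAT box, a site of the NF-Y factor, was in 21 of the 29 (72.4%), beside 38.8% of all. A match describes letters and is not evidence that a factor bound there.

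The genotypes separated over time on these genes. The G2/M list had 24 members lower and 1 higher at 0 h (median -0.17, beside 23.2% of all genes lower), 1 lower and 26 higher at 24 h (median 0.16, beside 23.1% higher), and all 35 lower at 48 h (median -0.95, beside 25.6% lower). Top2a averaged 667, 565, 183 and 94.6 CPM at 0, 24, 48 and 72 h in sgPBRM1 cells, and 817, 485, 340 and 263 CPM in sgCT cells. Its level fell with time in both genotypes, and the sgPBRM1 level was the higher one at 24 h and the lower one at the other times. Kif11 averaged 244, 164, 43.9 and 22.5 CPM in sgPBRM1 cells and 320, 163, 98.3 and 74.1 CPM in sgCT cells at those times, with almost the same value in both at 24 h. The interaction test, which compares the genotype difference at 72 h with that at 0 h, was passed by all 35 members in the lower direction, beside 15.8% of all genes.

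**Figure D2:**
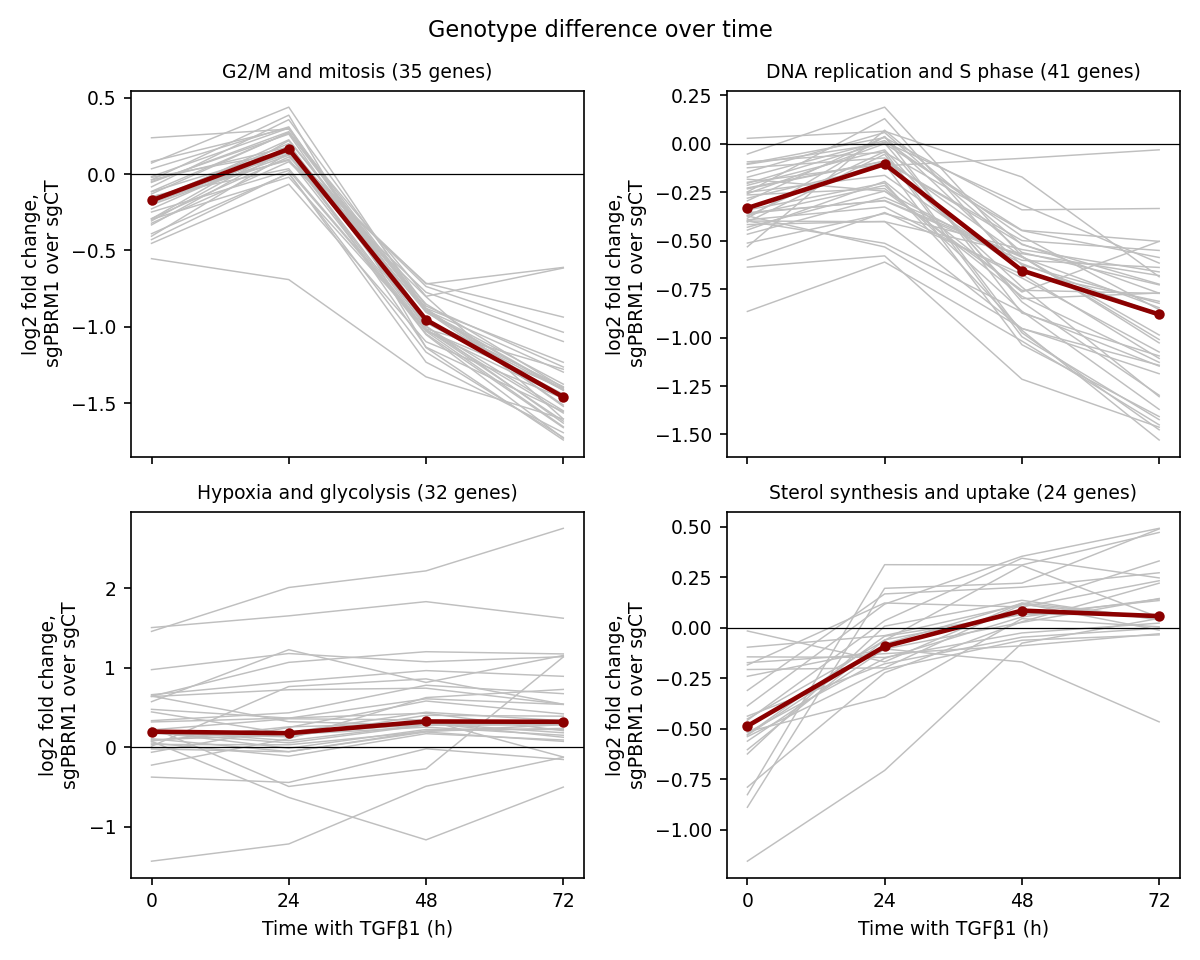
Differences between sgPBRM1 and sgCT cells (y axis, log2 fold change) at 0, 24, 48 and 72 h of TGFβ1 (x axis) for the members of 4 gene lists (each panel has its own y range), thin lines for genes and the thick line for the list's median. The G2/M median moves to -1.46 at 72 h with a value above 0 at 24 h, the sterol median lies at -0.49 at 0 h and 0.06 at 72 h, and the hypoxia median at 0.19 at 0 h and 0.32 at 72 h.

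DNA replication genes followed with smaller differences. Of 41 tested members 39 were lower at 72 h and none passed as higher, with a median of -0.88 and a summed level of 941 to 1010 CPM in sgPBRM1 libraries and 1760 to 1840 CPM in sgCT libraries. Pole, the catalytic subunit of the leading strand polymerase, had 13.6, 11.5 and 12 CPM in sgPBRM1 libraries, against 34.3, 36.4 and 36 CPM in sgCT libraries (-1.53, SE 0.0673). Mcm6, a subunit of the replicative helicase, had 83.9, 81.3 and 83.1 CPM in sgPBRM1 libraries, against 164, 154 and 174 CPM in sgCT libraries (-0.99, SE 0.0372). Both genes were lower in every sgPBRM1 library than in any sgCT library. Among the other helicase subunits, Mcm5 differed by -1.37 (SE 0.0554) and Mcm2 by -0.85 (SE 0.0427). Uhrf1, which carries DNA methylation through replication, had 22.9, 20.1 and 19.5 CPM in sgPBRM1 libraries, against 59.6, 57.5 and 54.7 CPM in sgCT libraries (-1.46, SE 0.0574). E2f1, an activator of the S phase genes, did not pass, with 38.2, 35.7 and 39.7 CPM in sgPBRM1 libraries, against 38.4, 38 and 39.7 CPM in sgCT libraries (-0.03, SE 0.0569, adjusted p = 0.682), whereas the repressor E2f8 differed by -1.42 (SE 0.1). The list was already lower at 0 h, with 32 members lower and none passing as higher (median -0.33, beside 23.2% of all genes lower). At 24 h 18 members were lower and 1 higher (23.7% and 23.1% of all genes), and at 48 h 38 were lower.

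E2F sites are shown for 2 replication genes, since E2F factors are known to time S phase genes through them. The site was searched as TTCCCGCC, TTTCCCGC or TTTGGCGC on both strands, and is in capitals in the 150 bases before the RefSeq start (GRCm38.p6), at chr1:128359706-128359855 (minus strand) for Mcm6 and chr17:56303187-56303336 (plus strand) for Uhrf1.
Mcm6: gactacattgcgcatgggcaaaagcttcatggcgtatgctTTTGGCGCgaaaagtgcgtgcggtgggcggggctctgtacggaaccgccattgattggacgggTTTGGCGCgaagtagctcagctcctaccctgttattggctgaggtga
Uhrf1: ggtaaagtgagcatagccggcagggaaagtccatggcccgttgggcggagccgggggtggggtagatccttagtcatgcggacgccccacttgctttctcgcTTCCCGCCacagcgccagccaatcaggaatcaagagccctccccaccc
Of the 33 replication genes with a promoter in the table, 17 held the site (51.5%), beside 6.15% of all tested genes and 0 of the 29 G2/M genes. The cell cycle homology region was in 7 of the 33 (21.2%).

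Regulators of the cell cycle were mixed. Of 15 tested CDK inhibitors, D cyclins and related genes, Myc included, 3 were higher and 7 lower (median -0.08). The list joins brakes and drivers of the cycle, so these counts do not describe the brakes alone. Cdkn2b (p15), a TGFβ-induced inhibitor of CDK4 and CDK6, had 178, 196 and 186 CPM in sgPBRM1 libraries, against 108, 110 and 108 CPM in sgCT libraries (0.78, SE 0.0371). Cdkn1a (p21), which the p53 and TGFβ pathways induce, did not pass, with 117, 117 and 110 CPM in sgPBRM1 libraries, against 125, 119 and 121 CPM in sgCT libraries (-0.08, SE 0.0388, adjusted p = 0.0781), but it passed as lower without sgCT replicate 2 (-0.11), sgPBRM1 replicate 1 (-0.10) or sgPBRM1 replicate 2 (-0.10). Myc had 151, 164 and 166 CPM in sgPBRM1 libraries, against 161, 164 and 162 CPM in sgCT libraries, and the groups overlapped (-0.02, SE 0.0374, adjusted p = 0.749). Cyclin D1 (Ccnd1) was lower (-0.26, SE 0.0311) and cyclin D2 (Ccnd2) higher (0.33, SE 0.0331). The p53 target list had 7 members higher and 12 lower of 27.

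Among genes that reached 10 CPM in the higher genotype and whose libraries did not overlap, the largest lower difference was that of Peg3, an imprinted zinc finger gene expressed from the paternal allele. It had 6.79, 5.98 and 7.82 CPM in sgPBRM1 libraries, against 324, 330 and 337 CPM in sgCT libraries (-5.59, SE 0.0587, adjusted p = 3.79e-60). Usp29, its imprinted neighbour that starts beside it on the other strand, had 2 counts in all 3 sgPBRM1 libraries together and 239 in the sgCT libraries. Both were already lower at 0 h, Peg3 by -4.36 (SE 0.0522) with 11.2 to 13.3 CPM in sgPBRM1 libraries and 254 to 265 CPM in sgCT libraries. Of 18 imprinted genes tested, both included, 6 were higher and 5 lower, and Snrpn was among the higher ones (1.02, SE 0.125) and Igf2r among the lower ones (-0.44, SE 0.0378).

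Among the other genes with the largest lower differences, Krt7, a simple epithelial keratin, had 31.1, 31.4 and 30.6 CPM in sgPBRM1 libraries, against 402, 375 and 382 CPM in sgCT libraries (-3.64, SE 0.0393), and differed by -3.49 at 0 h. C3, the central complement component, had 2.06, 2.69 and 1.9 CPM in sgPBRM1 libraries, against 38.2, 33.2 and 39 CPM in sgCT libraries (-4.04, SE 0.11). Unlike Krt7 it was higher at 0 h, with 39.9 to 43.9 CPM in sgPBRM1 libraries and 34.1 to 37.7 CPM in sgCT libraries (0.25). Habp2, a secreted serine protease that binds hyaluronan, had 8.66, 7.3 and 8.38 CPM in sgPBRM1 libraries, against 61.4, 55.8 and 58.9 CPM in sgCT libraries (-2.86, SE 0.0702). It averaged 201 CPM in sgPBRM1 cells and 203 CPM in sgCT cells at 0 h, a difference of -0.01. Tead2, one of the DNA-binding partners of YAP, had 9.47, 8.95 and 8.99 CPM in sgPBRM1 libraries, against 44.4, 40.7 and 45.9 CPM in sgCT libraries (-2.26, SE 0.0735). Wnt7a, a WNT ligand, had 8.53, 8.51 and 7.37 CPM in sgPBRM1 libraries, against 42.9, 37.1 and 42.2 CPM in sgCT libraries (-2.32, SE 0.0965). Pak6 (a p21-activated kinase), Tceal8, Pogk, Myo15b and Trip6 (a zyxin-family LIM protein) also stood among the 15 largest, between -3.65 and -2.25. Thbs3, a thrombospondin, differed by -2.27 (SE 0.107), and Cyp21a1, a steroid 21-hydroxylase with a near-identical copy nearby, by -3.58 (SE 0.0972).

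On the higher side, by the same rule, Fgf2 (basic fibroblast growth factor) differed most. It had 28.2, 32.8 and 33.5 CPM in sgPBRM1 libraries, against 2.32, 2.62 and 1.99 CPM in sgCT libraries (3.77, SE 0.147, adjusted p = 1.36e-30). Its difference was 0.68, 1.37 and 2.18 at 0, 24 and 48 h. Nudt6, which overlaps Fgf2 on the opposite strand, had 4.25 CPM in sgPBRM1 and 3.02 CPM in sgCT cells, and the sources used here do not say whether the counting used strand. Car12, a membrane carbonic anhydrase, had 38.9, 43 and 38.8 CPM in sgPBRM1 libraries, against 6.53, 5.98 and 5.42 CPM in sgCT libraries (2.75, SE 0.101). Sned1, an extracellular matrix glycoprotein, had 97.3, 112 and 106 CPM in sgPBRM1 libraries, against 24.2, 26.5 and 22.2 CPM in sgCT libraries (2.12, SE 0.0623). Ivl (involucrin), a precursor of the cornified envelope, had 257, 254 and 273 CPM in sgPBRM1 libraries, against 70.3, 70.3 and 71.7 CPM in sgCT libraries (1.88, SE 0.0454). Prr9, a proline-rich gene of the same chromosome 3 region, had 53, 51.5 and 51.3 CPM in sgPBRM1 libraries, against 5.59, 5.73 and 5.48 CPM in sgCT libraries (3.21, SE 0.0963). Olr1, the receptor for oxidised low density lipoprotein, had 80.1, 91.8 and 88.4 CPM in sgPBRM1 libraries, against 24, 26.3 and 21.8 CPM in sgCT libraries (1.85, SE 0.0653), and was lower in sgPBRM1 cells at 0 h (-1.33). Btc (betacellulin, a ligand of the EGF receptor), Egr2, Pla2g7, Cxxc5, Cnr1, Apol9b, Rxfp3, Kif26b and Cdh15 completed the 15 largest, between 1.77 and 2.76. Apol9b has a near-identical copy, so its reads may be split.

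**Figure D3:**
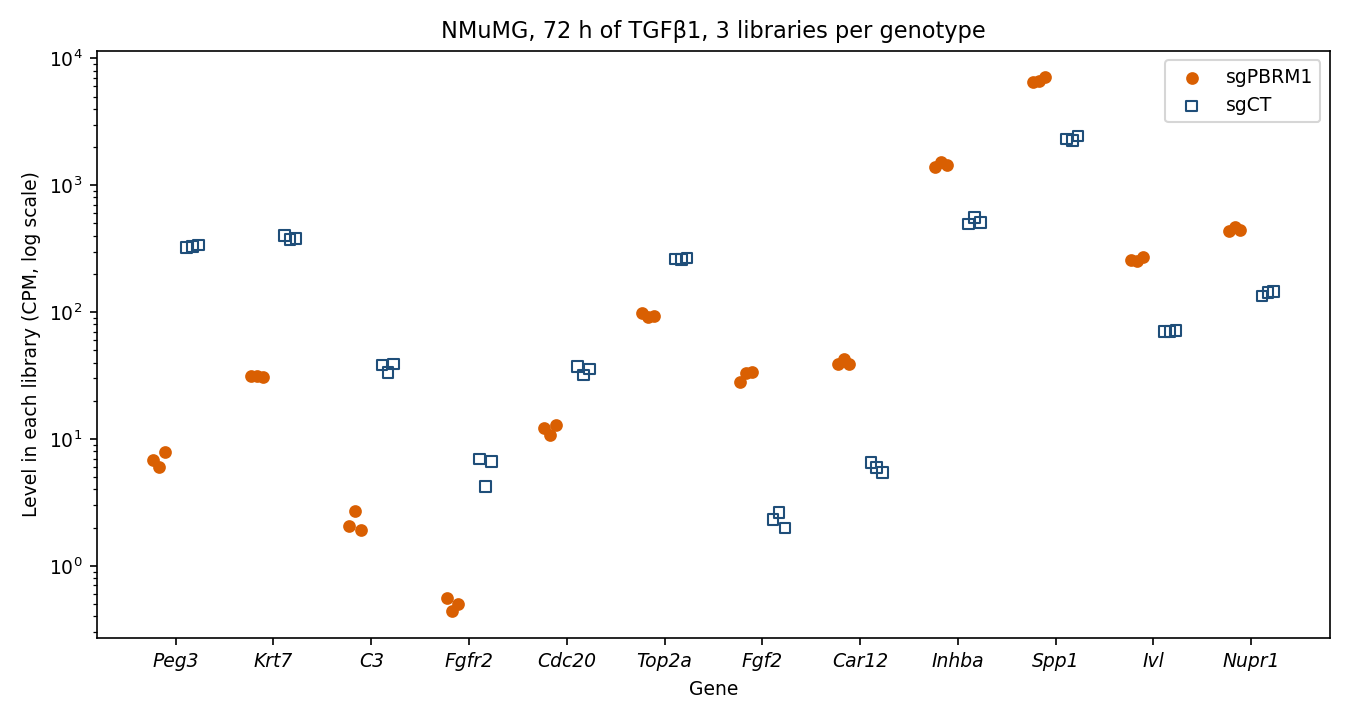
Level of 12 genes at 72 h of TGFβ1 in each library (y axis, CPM, log scale), with the 3 sgPBRM1 libraries as filled circles left of the 3 sgCT libraries as open squares. Peg3, Krt7, C3, Fgfr2, Cdc20 and Top2a lie lower and Fgf2, Car12, Inhba, Spp1, Ivl and Nupr1 higher in sgPBRM1 libraries.

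Members of the FGF family differed in both directions. Of 12 tested members 5 were higher and 4 lower, and 3 were higher without sgCT replicate 3 or sgPBRM1 replicate 3. Fgfr1, the receptor known from mesenchymal cells, had 61.6, 58.8 and 64.5 CPM in sgPBRM1 libraries, against 26.6, 28.9 and 25 CPM in sgCT libraries (1.20, SE 0.0657). Fgfr2, whose epithelial isoform answers stromal FGFs, had 0.561, 0.439 and 0.503 CPM in sgPBRM1 libraries, against 6.97, 4.24 and 6.62 CPM in sgCT libraries (-3.56, SE 0.246). As annotated, Fgfr2 spans many neighbouring genes, Htra1 among them. At 0 h Fgfr1 averaged 0.943 CPM in sgPBRM1 cells and 0.209 CPM in sgCT cells, and Fgfr2 averaged 19 CPM in sgPBRM1 cells and 50.4 CPM in sgCT cells. Fgf18 was higher (0.80, SE 0.149), and Fgf13, an intracellular member, and Fgfr3 were lower (-2.31, SE 0.2, and -0.98, SE 0.147). Immediate early and MAPK feedback genes, which FGF signals are known to induce, had 14 members higher and 4 lower of 24 (median 0.33), with Spry1, a feedback inhibitor, at 0.79 (SE 0.0883), Etv5 at 0.73 (SE 0.105), Egr1 at 0.96 (SE 0.0911) and Dusp2 lower at -0.92 (SE 0.159).

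Ligands of the TGFβ superfamily were higher more often than lower, 11 and 4 of 19 (median 0.35, beside 24.3% of all genes higher). Inhba, which encodes the subunit of activin A, had 1400, 1510 and 1440 CPM in sgPBRM1 libraries, against 495, 558 and 508 CPM in sgCT libraries (1.48, SE 0.0348). Tgfb1 itself had 116, 112 and 114 CPM in sgPBRM1 libraries, against 83.3, 80.3 and 86.5 CPM in sgCT libraries (0.45, SE 0.0412). Tgfb2 was higher by 0.48 (SE 0.0463), Ltbp4, which holds latent TGFβ in the matrix, by 0.99 (SE 0.0586), and Bmp4 by 0.97 (SE 0.22), whereas Gdf15 was lower by -2.22 (SE 0.314). Of 24 receptors and SMADs 11 were higher and 1 lower (median 0.115). Tgfbr2 had 135, 129 and 133 CPM in sgPBRM1 libraries, against 92.5, 87.9 and 92.6 CPM in sgCT libraries (0.54, SE 0.0373), Tgfbr1 differed by 0.08 (SE 0.0321, adjusted p = 0.0236), and Smad3 did not pass (0.02, SE 0.0359, adjusted p = 0.626). Tgfbr1 no longer passed without sgCT replicate 1 (0.06), sgCT replicate 2 (0.07) or sgPBRM1 replicate 1 (0.04). The number of lower members was 0 without sgCT replicate 1, 2 without sgPBRM1 replicate 1 and 3 without sgCT replicate 2 or sgPBRM1 replicate 3. The inhibitors Smad6 and Smad7 were higher by 0.52 (SE 0.0821) and 0.33 (SE 0.0378). Of 27 TGFβ target genes 19 were higher and 4 lower (median 0.33), among them Thbs1 with 8080, 8500 and 8650 CPM in sgPBRM1 libraries, against 5040, 5030 and 5000 CPM in sgCT libraries (0.74, SE 0.0223). The feedback target Skil did not pass (0.04, SE 0.0284, adjusted p = 0.21).

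Epithelial junction and filament genes were lower in several lists. Of 13 tight junction genes 8 were lower and 1 higher (median -0.34), of 9 desmosome genes 5 and 1 (median -0.64), and of 8 keratins 6 and 0 (median -0.53), beside 25.6% lower and 24.3% higher among all genes. Cldn4, a sealing claudin, had 7.97, 7.3 and 5.92 CPM in sgPBRM1 libraries, against 32.1, 31.5 and 30.3 CPM in sgCT libraries (-2.15, SE 0.0965). Cgn (cingulin), which ties tight junctions to actin, had 19.4, 18.7 and 21.1 CPM in sgPBRM1 libraries, against 66.2, 59.2 and 62.3 CPM in sgCT libraries (-1.66, SE 0.0566). Krt8, the partner of keratin 18, had 2940, 2980 and 2870 CPM in sgPBRM1 libraries, against 4610, 4620 and 4780 CPM in sgCT libraries (-0.67, SE 0.0232). Dsg2 and Dsp, a cadherin and the plakin of desmosomes, were lower by -0.93 (SE 0.0367) and -0.49 (SE 0.031). The single higher members were Cldn2, a pore-forming claudin (0.43, SE 0.0284), and Pkp1, a desmosomal armadillo protein with 579, 667 and 634 CPM in sgPBRM1 libraries, against 268, 293 and 249 CPM in sgCT libraries (1.22, SE 0.0387). Adherens junction and polarity genes were divided, with 8 higher and 8 lower of 20. E-cadherin (Cdh1) was among the higher ones, with 448, 463 and 453 CPM in sgPBRM1 libraries, against 386, 384 and 370 CPM in sgCT libraries (0.26, SE 0.0292), while the polarity genes Llgl2 (-1.05, SE 0.0686) and Crb3 (-0.90, SE 0.161) and the nectin Nectin2 (-0.88, SE 0.0495) were lower.

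**Figure D4:**
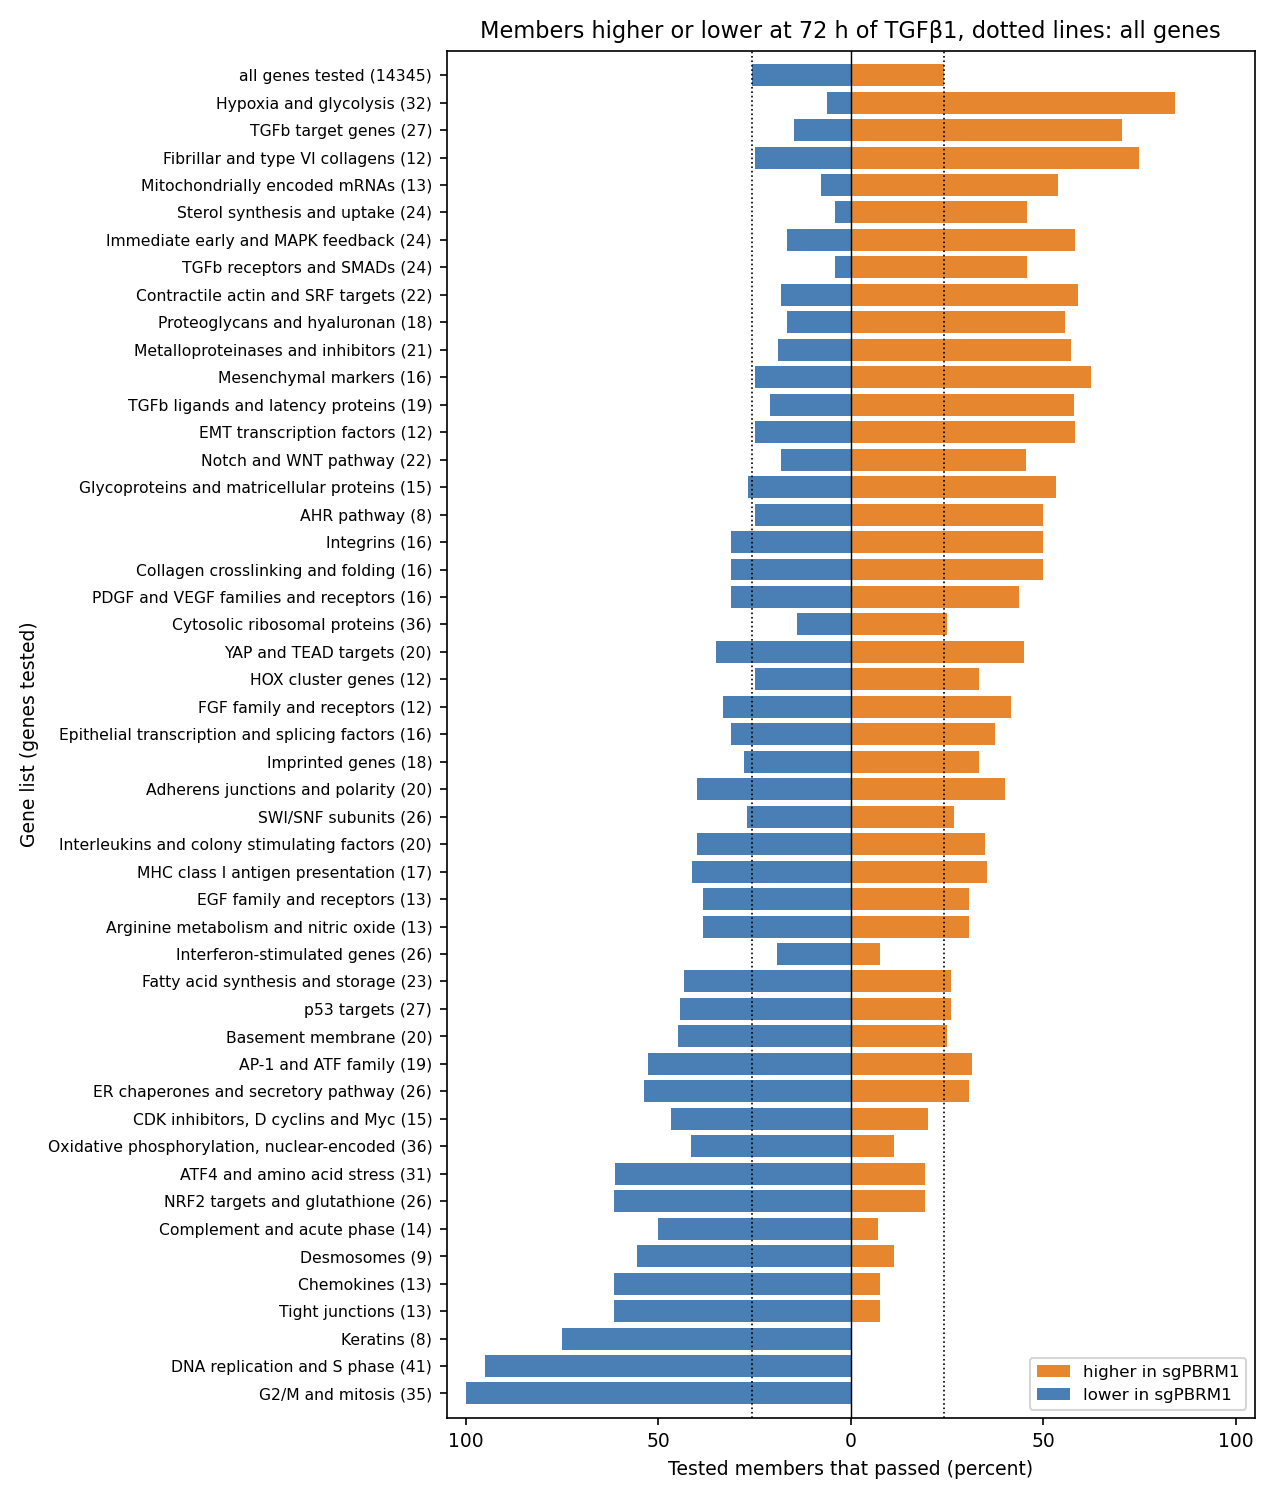
Share of tested members that were higher (right, orange) or lower (left, blue) in sgPBRM1 than in sgCT cells at 72 h of TGFβ1 (x axis, percent of members), by gene list with at least 8 tested members (y axis, with the number tested in brackets; dotted lines mark the shares of all genes). The row of all 14345 genes, 24.3% higher and 25.6% lower, gives the background, and the G2/M list is the one drawn whose members were all lower.

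Transcription factors of the EMT differed mostly by less than 2-fold. Of 12 tested 7 were higher and 3 lower (median 0.30). At least 2-fold was reached by 1 higher and 1 lower member, beside 3.14% and 5.05% of all genes. Zeb2 had 132, 134 and 128 CPM in sgPBRM1 libraries, against 67.7, 69.4 and 65.3 CPM in sgCT libraries (0.96, SE 0.0413), and was higher by 1.03 at 0 h as well. Snai1 and Snai2, repressors of E-cadherin, were higher by 0.79 (SE 0.081) and 0.85 (SE 0.146), Zeb1 by 0.36 (SE 0.0374), and Hmga2 was lower by -0.39 (SE 0.0354). At 0 h Snai1 was higher by 1.51 and Zeb1 by 0.21, whereas Snai2 did not pass (-0.11). Ehf, an epithelial ETS factor, had 0.872, 0.933 and 1.23 CPM in sgPBRM1 libraries, against 3.95, 3.86 and 3.73 CPM in sgCT libraries (-1.92, SE 0.236). Vimentin (Vim) did not pass, with 1740, 1860 and 1780 CPM in sgPBRM1 libraries, against 1840, 1850 and 1830 CPM in sgCT libraries (-0.04, SE 0.0245, adjusted p = 0.24), but it passed as lower without sgPBRM1 replicate 2 (-0.07). N-cadherin (Cdh2) was higher by 0.10 (SE 0.0322), and no longer passed without sgCT replicate 1 (0.08) or sgPBRM1 replicate 2 (0.08). Smooth muscle actin (Acta2) had 44.4, 50.2 and 50.9 CPM in sgPBRM1 libraries, against 22.7, 24.7 and 25.4 CPM in sgCT libraries (1.00, SE 0.0807), and calponin 1 (Cnn1), also a smooth muscle gene, was lower by -2.16 (SE 0.369). Contractile genes as a list had 13 members higher and 4 lower of 22 (median 0.20).

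Fibrillar and type VI collagens were mostly higher. Of 12 tested 9 were higher and 3 lower (median 0.94). At 0 h, without TGFβ1, 8 members were already higher and none passed as lower (median 0.979). The interaction was passed by 1 member in the higher direction and by 6 in the lower (median -0.582). The excess of this list was therefore present before TGFβ1 and is not particular to 72 h. Col5a1, which starts type I fibrils, had 614, 692 and 637 CPM in sgPBRM1 libraries, against 300, 309 and 296 CPM in sgCT libraries (1.10, SE 0.0353). Col12a1 had 516, 531 and 527 CPM in sgPBRM1 libraries, against 208, 230 and 211 CPM in sgCT libraries (1.28, SE 0.0355), and Col6a1 and Col6a2 were higher by 0.78 (SE 0.0371) and 1.43 (SE 0.0765). Col6a3 and Col16a1 were lower, and so was Col1a1, a chain of the main fibril collagen, with 543, 562 and 577 CPM in sgPBRM1 libraries, against 744, 792 and 729 CPM in sgCT libraries (-0.43, SE 0.0328). Plod2 and P4ha2, which hydroxylate collagen lysines and prolines, were higher by 0.95 (SE 0.0336) and 1.20 (SE 0.0623). Basement membrane genes were divided, with 5 higher and 9 lower of 20. Lamb3, a chain of the epithelial laminin 332, was lower by -1.23 (SE 0.0346), whereas Lamb1 and Col4a1 were higher by 0.93 (SE 0.0357) and 0.44 (SE 0.0259). Spp1 (osteopontin), a secreted integrin ligand, had 6510, 6670 and 7070 CPM in sgPBRM1 libraries, against 2320, 2250 and 2440 CPM in sgCT libraries (1.53, SE 0.0269). Mmp9, a gelatinase, had 127, 147 and 146 CPM in sgPBRM1 libraries, against 50.5, 57.8 and 53.1 CPM in sgCT libraries (1.38, SE 0.0564), within a list of 21 proteinases and inhibitors with 12 higher and 4 lower.

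Of the 32 tested genes of hypoxia and glycolysis, 27 were higher and 2 lower, beside 24.3% and 25.6% of all genes, with a median of 0.32. Most differences were small, and 6 members reached 2-fold. Bnip3, a mitophagy receptor induced by HIF, had 211, 223 and 184 CPM in sgPBRM1 libraries, against 92.6, 108 and 80.8 CPM in sgCT libraries (1.14, SE 0.0674). Slc2a1, the glucose transporter GLUT1, had 252, 250 and 232 CPM in sgPBRM1 libraries, against 177, 205 and 167 CPM in sgCT libraries (0.42, SE 0.045). Egln3, a HIF hydroxylase, was higher by 1.15 (SE 0.0845), Pdk1, which inhibits pyruvate dehydrogenase, by 0.89 (SE 0.0538), and Pgk1, of glycolysis, by 0.33 (SE 0.0363). The exceptions were Pfkfb3 (-0.50, SE 0.0596) and Hk2 (-0.12, SE 0.0313). At 0 h 21 members were higher, beside 21.9% of all genes, and 2 lower. Oxygen was not measured.

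The hypoxia response element, the HIF binding core, is shown for Bnip3 and Slc2a1 because these are textbook HIF targets. It was searched as ACGTGC on both strands and is in capitals in the 150 bases before the RefSeq start (GRCm38.p6), at chr7:138909507-138909656 (minus strand) for Bnip3, where a pair of matches on opposite strands overlap, and chr4:119108595-119108744 (plus strand) for Slc2a1.
Bnip3: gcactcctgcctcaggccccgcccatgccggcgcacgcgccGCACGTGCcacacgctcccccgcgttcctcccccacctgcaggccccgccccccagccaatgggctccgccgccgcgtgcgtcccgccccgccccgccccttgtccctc
Slc2a1: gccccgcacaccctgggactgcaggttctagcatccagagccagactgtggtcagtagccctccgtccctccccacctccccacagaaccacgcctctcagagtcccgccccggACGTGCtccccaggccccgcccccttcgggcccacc
Of the 28 hypoxia genes with a promoter in the table, 12 held the element (42.9%), beside 8.2% of all.

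Sterol genes were mostly lower at 0 h and not at 72 h. Of 24 tested members of cholesterol synthesis and uptake, 21 were lower and none passed as higher at 0 h (median -0.49, beside 23.2% of all genes lower), and 11 were higher, 1 lower and 12 did not pass at 72 h (median 0.06). The interaction was passed by 20 members in the higher direction, beside 11.6% of all genes, and by 1 in the lower. Insig1, a sterol sensor of the endoplasmic reticulum, differed by 0.47 (SE 0.0558) at 72 h and -0.83 at 0 h.

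Stress pathways differed from each other. The ATF4 and amino acid list had 19 members lower and 6 higher of 31 at 72 h (median -0.22). At 0 h 11 were lower and 6 higher and at 24 h 14 and 5, whereas at 48 h 3 were lower and 23 higher (median 0.41, beside 24.4% of all genes higher). Chac1, a glutathione-degrading ATF4 target, averaged 38.4, 27.1, 120 and 61.4 CPM at 0, 24, 48 and 72 h in sgPBRM1 cells, and 41.4, 27.8, 60.4 and 75.1 CPM in sgCT cells. Nupr1, a stress-induced chromatin protein, had 433, 472 and 447 CPM in sgPBRM1 libraries, against 134, 143 and 146 CPM in sgCT libraries at 72 h (1.68, SE 0.034), and Phgdh, of serine synthesis, was lower (-0.98, SE 0.032). NRF2 targets had 16 members lower and 5 higher of 26 (median -0.32). Hmox1, which degrades haem, was the largest exception, with 404, 420 and 370 CPM in sgPBRM1 libraries, against 175, 172 and 162 CPM in sgCT libraries (1.23, SE 0.0377).

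Chemokine and complement genes were more often lower than higher. Of 13 tested chemokines 8 were lower and 1 higher (median -0.95), with a summed level of 118 to 128 CPM in sgPBRM1 libraries and 288 to 320 CPM in sgCT libraries. Ccl2, a monocyte attractant, had 36.6, 30.3 and 33.7 CPM in sgPBRM1 libraries, against 171, 161 and 192 CPM in sgCT libraries (-2.38, SE 0.0538). Cxcl16 had 0.872, 0.329 and 0.894 CPM in sgPBRM1 libraries, against 8.98, 8.23 and 8.79 CPM in sgCT libraries (-3.64, SE 0.195), and Cxcl1 was lower by -0.95 (SE 0.124), whereas Ccl20 was higher by 0.66 (SE 0.117). At 0 h 3 chemokines were higher and 5 lower. Of 14 complement and acute phase genes 7 were lower and 1 higher (median -0.96). Interferon-stimulated genes had 2 members higher and 5 lower of 26, and 8 lower without sgPBRM1 replicate 1. H2-D1, of MHC class I, was lower by -2.33 (SE 0.163) and H2-Q4 higher by 1.13 (SE 0.248), though their sequences are alike and reads may be split between them.

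Among SWI/SNF subunits 7 of 26 were higher and 7 lower (median 0.00278). Smarca2 (BRM), one of the alternative ATPases, had 21.4, 19.6 and 20.5 CPM in sgPBRM1 libraries, against 9.85, 8.1 and 9.39 CPM in sgCT libraries (1.17, SE 0.095), and the other ATPase, Smarca4 (BRG1), did not pass (0.07, SE 0.0302, adjusted p = 0.062). Of the PBAF subunits, Arid2 had 145, 142 and 143 CPM in sgPBRM1 libraries, against 107, 109 and 110 CPM in sgCT libraries (0.40, SE 0.04), Phf10 was lower (-0.21, SE 0.0533), and Brd7 did not pass (0.01, SE 0.0445, adjusted p = 0.918). The Smarca2 difference was 0.35 at 0 h and 0.07 at 24 h.

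The interaction test asked whether the genotype difference at 72 h was itself different from that at 0 h. It was passed by 3937 genes (27.4%), 1671 in the higher direction (11.6%) and 2266 in the lower (15.8%). With library totals in place of TMM factors the split was 1136 higher and 3209 lower. Dlc1, a RhoGAP, was at 1.24 to 2.3 CPM in sgPBRM1 and 14.4 to 17.6 CPM in sgCT libraries at 0 h, and at 127, 136 and 132 CPM in sgPBRM1 libraries, against 62.8, 62.8 and 56.3 CPM in sgCT libraries at 72 h. Maf, a bZIP factor, was likewise lower in sgPBRM1 cells at 0 h (-1.17) and higher at 72 h, with 31.4, 38.6 and 30.4 CPM in sgPBRM1 libraries, against 10.4, 10.8 and 10.4 CPM in sgCT libraries (1.67, SE 0.0962). Cyp1b1, a dioxin-induced oxidase, was higher at both times, by 3.21 at 0 h and 0.84 (SE 0.057) at 72 h.

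TGFβ1-treated 4T1 cells gave a second comparison with other libraries, another line and another way of lowering PBRM1. There Pbrm1 was lower in shPBRM1 than in pLKO cells by -2.83 (SE 0.0414), and 7643 of 13854 genes passed (55.2%), with 27.8% higher and 27.3% lower (3857 and 3786 genes, or 4902 and 3054 with library totals in place of TMM factors). Of the NMuMG genes at least 2-fold higher at 72 h, 275 were tested in 4T1. Of these, 24 were at least 2-fold higher in shPBRM1 cells. This was 8.73% of the 275 and 15.1% of the 159 such 4T1 genes among the 12331 tested in both lines. For the lower genes it was 53 of 490, or 10.8% and 17.8% of 298. Over all 13854 genes tested in 4T1, a wider set, 1.78% were higher at this size and 3.35% lower. Of the higher genes 32.7% passed as higher in 4T1 at any size (29.7% of all genes tested in both lines) and 27.6% as lower. Of the lower genes 28% passed as lower (27.6% of all) and 34.3%, or 168 genes, as higher. The G2/M list had 23 members higher and 3 lower in shPBRM1 cells (median 0.16), and the hypoxia list 3 higher and 25 lower of 33 (median -0.30), unlike in NMuMG. The sterol list had 22 of 24 higher (median 0.81), and the chemokine list 10 of 11 lower and 0 higher (median -1.70).

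Some named genes shared direction in the lines. Most genes given next were named because they differed at least 2-fold in the same direction in both. Their agreement was therefore set by that choice. C3 differed by -3.68 (SE 0.0521) in 4T1, Ccl2 by -2.46 (SE 0.312), Cxcl16 by -1.70 and Csf1r, the receptor of macrophage colony-stimulating factor, by -1.97 beside -1.16 (SE 0.116) in NMuMG. Higher in both were Fgfr1 (2.16 in 4T1), Col6a2 (3.02), Kif26b, a kinesin family member (2.03), Cdh15, M-cadherin (3.42), Egr2 (1.29) and Btc (1.27). Acox2, a peroxisomal oxidase, had 6.85, 3.68 and 7.32 CPM in sgPBRM1 libraries, against 23, 21.8 and 20.7 CPM in sgCT libraries (-1.88, SE 0.125), and differed by -2.38 in 4T1. Shank2, a scaffold protein, differed by -1.09 (SE 0.0501) in NMuMG and -1.67 in 4T1, and Cyba, a subunit of NADPH oxidase, by -2.15 (SE 0.146) and -1.08. Krt7 and Fgf2, far apart in NMuMG, differed by -0.20 and 0.23 in 4T1, and Fgf2 did not pass there (adjusted p = 0.611). Fgf2 was at 0.712 CPM in shPBRM1 and 0.589 CPM in pLKO cells (SE 0.36), too low to show whether its NMuMG difference is absent in 4T1. Levels in shPBRM1 and pLKO cells were also low for Ccl2 (0.389 and 2.07 CPM), Col6a2 (3.79 and 0.455 CPM) and Cdh15 (3.42 and 0.309 CPM).

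**Figure D5:**
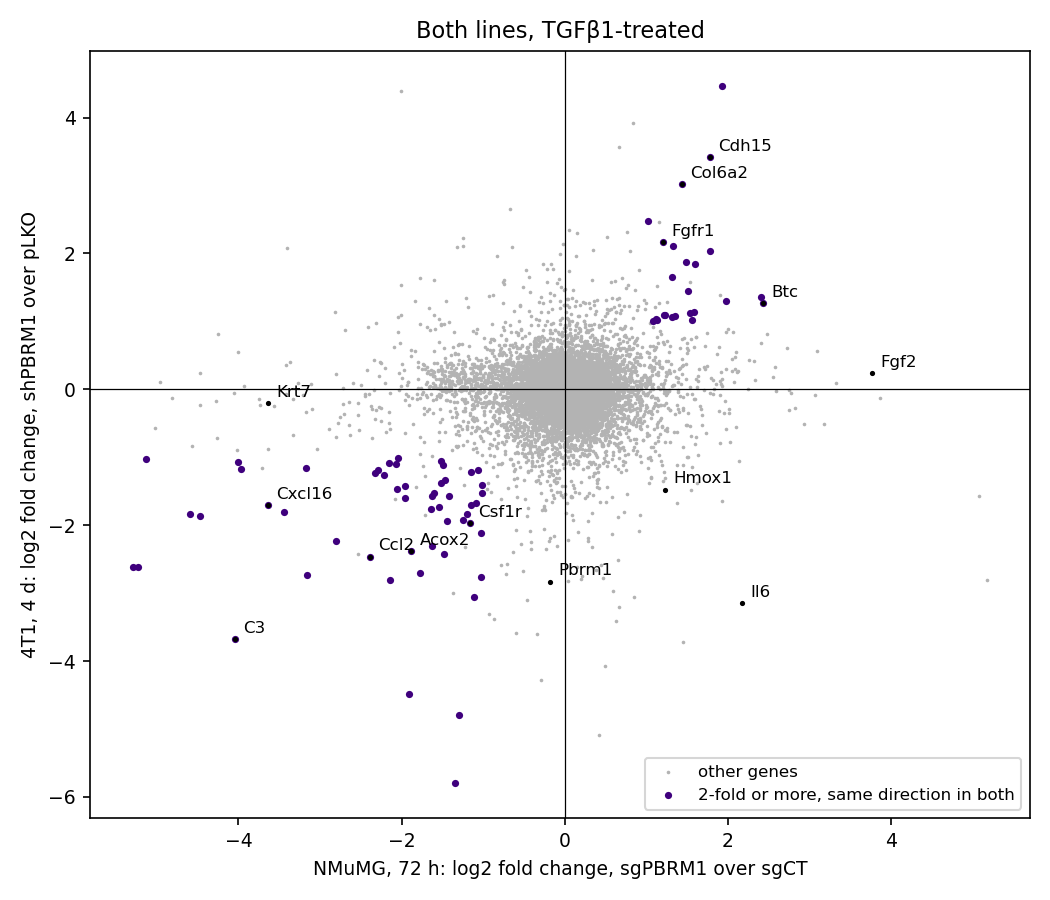
Difference at 4 d of TGFβ1 between shPBRM1 and pLKO 4T1 cells (y axis, log2 fold change) against the difference at 72 h between sgPBRM1 and sgCT NMuMG cells (x axis, log2 fold change) for the 12331 genes tested in both. Points at least 2-fold in the same direction in both lines are dark, 24 higher and 53 lower, and the labels name genes given in the text.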

How the data were processed

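RNA sequencing counts were deposited by the authors as raw counts per gene, as whole numbers, in separate tables for NMuMG and 4T1. Per the submitters' processing notes, reads were handled with Trim Galore 0.6.7, HISAT2, STAR 2.7.10a, DESeq2 and edgeR on mm10, and the sources used here do not say which of them made which table. Per the labels' protocols, NMuMG libraries were sequenced by Novogene and 4T1 libraries made with a stranded mRNA kit.

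Groups came from the labels. The 24 NMuMG libraries entered 1 fit with 8 groups, and the 12 libraries of 4T1 another, in edgeR 4.0.16 (R 4.3.3) with TMM factors, filterByExpr (minimum count 10, total 15) and the quasi-likelihood test. P-values were adjusted by Benjamini and Hochberg over 14345 of 54532 genes (13854 of 55487 in 4T1), and genes passed under 0.05. An SE is the absolute log2 fold change divided by the root of the F statistic. The common biological coefficient of variation was 2.88% (2.95% in 4T1), and depth was 22828442 to 31061668 counts in shPBRM1 and 23261795 to 25696576 in pLKO libraries. An exact test on 3 against 3 libraries cannot give a p below 0.1, so single values were judged by the fit across genes.

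On simulated data the 72 h step, run on 13885 genes, found 88% of 1.5-fold, 98% of 2-fold and all 3- and 4-fold changes, and called 0.0731% of unchanged genes. Only 50 genes per fold were changed there, all with a mean of at least 2 CPM. These rates therefore do not cover lower levels or data in which 49.9% of genes pass. Genes were named by a rule in parts: a fixed set of EMT genes with Pbrm1; the 15 largest differences per direction with at least 10 CPM in the higher genotype and libraries that do not overlap; up to 6 passing members per gene list with at least 2 CPM, and members shown not to pass; the 10 largest interactions per direction; and the 10 largest per direction shared with 4T1. The members, lists and rule were chosen with earlier results of these data known. Promoters came from RefSeq. Alternatives were RLE factors, library totals, no filter, DESeq2 1.42.0, fits of the compared groups alone, a replicate block and leaving out each library. Other libraries of the series were not used here. Some items are not reported here.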

Additional observations from a re-analysis of the deposited data

Results flagged for a closer look

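The genotype difference at 72 h differed from that at 0 h for 3937 genes in the interaction test (edgeR's quasi-likelihood test, adjusted p under 0.05). Among the 20 genes with the largest interactions at 10 CPM or more, 15 also reached 2 CPM in the higher genotype at 0 h. Positive interactions were those of Dlc1 (4.30, SE 0.144), Olr1 (3.19, SE 0.128), Fgf2 (3.09, SE 0.302), Maf (2.84, SE 0.139), Ivl (2.10, SE 0.155), Lpin3 (2.08, SE 0.171), Cemip (2.08, SE 0.162) and Ctla2a (1.97, SE 0.166). Negative ones were those of Ccl7 (-1.97, SE 0.275), Htra1 (-2.14, SE 0.16), Cyp1b1 (-2.37, SE 0.142), Myo15b (-2.51, SE 0.145), Habp2 (-2.84, SE 0.0807), Cyp21a1 (-3.25, SE 0.143) and C3 (-4.29, SE 0.132). Cemip is a hyaluronan-degrading protein, Htra1 a secreted serine protease and Lpin3 a phosphatidate phosphatase. Cyp21a1 has a near-identical copy nearby and its counts are uncertain.

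Among the genes named by the rule above whose NMuMG libraries did not overlap, 4 differed by at least 2-fold in opposite directions in the lines. Other genes were not searched for this, so 4 is not a count over all genes tested in both lines. Il6, an inflammatory cytokine, differed by -3.15 (SE 0.451) in 4T1 cells and 2.17 in NMuMG cells. Its levels were low, with 0.113 CPM in shPBRM1 and 1.02 CPM in pLKO cells, and 3.52 CPM in sgPBRM1 and 0.782 CPM in sgCT cells. Hmox1 differed by -1.48 and 1.23, Eno2, a neuronal enolase that hypoxia induces, by -1.38 and 1.62, and Osmr, the oncostatin M receptor, by -1.29 and 1.06 in 4T1 and NMuMG cells. The difference between the lines was not tested.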

How the results depend on the processing

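No count of passing genes over the whole table moved by over 1.5 times under any alternative tried. At 72 h the count was 7133 with RLE factors, 7164 with library totals (40.3% of them higher, beside 48.7%), 6824 with DESeq2, 6620 with no filter on low counts and 6800 with the compared groups alone, and 6462 to 6691 when each library was left out, beside 7161. Leaving out 1 library gave 1089 to 1160 genes at 2-fold or more, 3639 to 3839 interactions, 5810 to 6038 genes at 0 h, 5965 to 6222 at 24 h, 6578 to 6687 at 48 h and 7049 to 7330 in 4T1. Of 1918 values of 160 named genes under these alternatives, 1891 kept their call. The sign turned only for genes that did not pass: Brd7 (-0.0356 with library totals, and -0.0210 to 0.0223 when each library was left out), Smad3 (-0.0194 with library totals), and, when each library was left out, E2f1 (-0.0777 to 0.00363), Myc (-0.0486 to 0.0156) and Epcam (-1.83 to 0.24), and the cause was not tested. With library totals Cdh2 (0.06) and Tgfbr1 (0.04) no longer passed, and Cdkn1a (-0.12) and Vim (-0.08) passed as lower. Some counts of list members moved further: the lower receptors and SMADs were 4 with library totals and 0 with no filter, beside 1, the lower sterol genes 2 with library totals, beside 1, and when single libraries were left out the higher FGF members were 3, beside 5, and the lower interferon-stimulated genes 8, beside 5. Genes under about 1 CPM rest on few counts.

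Same-numbered libraries of the genotypes shared little: their deviations from the group means correlated at 0.0448 to 0.103, against -0.0899 to 0.00822 for other numbers, so the numbers were not taken as pairs, although each library correlated best with its own number, which is a hint from the data. With the replicate block 7236 genes passed at 72 h and 4077 in the interaction, and Smarca4 passed (0.07).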

Other observations

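Further gene groups stood out when the table was read through, and they were chosen after their values were seen, so they are given with no test of their own. Replication-dependent histone genes are normally read out without a poly(A) tail, and 15 of 25 tested were higher in sgPBRM1 cells at 72 h, none lower, with a median of 1.06 (0.29 at 0 h). Their summed level was 224 CPM in sgPBRM1 and 101 CPM in sgCT cells. Hist1h1c, a linker histone, had 127 CPM in sgPBRM1 and 51.6 CPM in sgCT cells (1.29, SE 0.0477). Near-identical histone genes share reads.

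The stretch between Lor and Kprp on chromosome 3 holds genes of the cornified envelope of the epidermis, such as Ivl and Sprr1a, beside predicted genes. Of 20 genes tested there, predicted ones included, 13 were higher and 1 lower, with a median of 1.05 (0.01 at 0 h) and a summed level of 1210 CPM in sgPBRM1 and 486 CPM in sgCT cells. The 0 h median includes Prr9, at 0 CPM in every 0 h library, and large differences that did not pass, such as Lce1f (2.38) and Lce1h (-1.45). It therefore does not show equal levels at 0 h, when only Sprr1a passed, as higher (0.94). Sprr1a had 635 CPM in sgPBRM1 and 313 CPM in sgCT cells (1.02, SE 0.0614), Lce1g 210 and 62.7 CPM (1.74, SE 0.0612), and the lower one, Sprr1b, 2.39 and 6.22 CPM (-1.38, SE 0.19). Protocadherin beta genes, which give neurons surface identity, were higher in 11 of 12, with a median of 1.56 at 72 h and 2.83 at 0 h. Their levels were low, with a sum of 43.3 CPM in sgPBRM1 and 12.7 CPM in sgCT cells at 72 h. The highest mean of a member was 7.97 CPM (Pcdhb16 in sgPBRM1 cells). Members of these families are similar in sequence and their counts are uncertain.

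Of 11 genes between Tnxb and C2 on chromosome 17, 10 were lower and none passed as higher, with a median of -1.58 (-0.40 at 0 h). At least 2-fold was reached by 6, and apart from Cyp21a1 these were low, at most 3.58 CPM (Tnxb in sgCT cells). Other members differed less: Skiv2l by -0.16 (78.8 CPM in sgPBRM1 and 87.9 CPM in sgCT cells), Nelfe by -0.34, Stk19 by -0.38 and Dxo by -0.58. Fanconi and BRCA genes, which repair DNA crosslinks and breaks, were lower in 10 of 14, with a median of -1.01 (-0.155 at 0 h). Of 20 nucleoporin genes 16 were lower and 1 higher, none by 2-fold (median -0.26).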
